A study of Rattus norvegicus with 2 samples.

Results

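Rab GTPases are the small G proteins that direct membrane traffic, and 76 probes for them under 48 gene names were examined in rats that carry human islet amyloid polypeptide (IAPP) and in wild-type rats. The members were the gene probes whose array name reads Rab followed by a number and at most 1 letter and 1 more number, so Rab-interacting proteins were left out. They are 48 of 35561 gene names and 76 of 41012 gene probes on the array. All 76 were matched to a RefSeq gene name, and several array names are older ones: Rab1, Rab2, Rab7, Rab9 and Rab39 are now Rab1a, Rab2a, Rab7a, Rab9a and Rab39a, and Rab7l1 is Rab29. The probe named Rab2l is listed in RefSeq as Ralgdsl2, an exchange factor for Ral that is no Rab, and it stays in the counts because the rule took it by name.

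A Rab is inserted into a membrane by a lipid tail, is switched on when an exchange factor loads it with GTP, and then recruits effectors that carry, tether and fuse vesicles. GTPase-activating proteins switch it off, and GDP dissociation inhibitors (GDI) take it back to the cytosol. Each compartment bears its own Rabs: Rab1 and Rab2 at the border of endoplasmic reticulum (ER) and Golgi, Rab6 at the Golgi, Rab5 on early endosomes, Rab11 on recycling endosomes, Rab7 on late endosomes. In beta cells, Rab3 and Rab27 proteins are known for placing insulin granules at the plasma membrane.

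The study set HIP rats, a human IAPP transgenic line, against nondiabetic wild-type rats, with 2 extracts of each genotype and no treatment. Human IAPP, unlike the rat peptide, forms amyloid. Extracts 1 and 2 were wild type and were labelled with Cy3, and extracts 3 and 4 were human IAPP transgenic and were labelled with Cy5. Extracts 1 and 3 shared array 1, and extracts 2 and 4 shared array 2, so each array gives 1 ratio of HIP over wild type and n is 2 throughout. Here wild type 1 and HIP 1 are the extracts of array 1, and wild type 2 and HIP 2 those of array 2. HIP cDNA carried Cy5 on both arrays, so an effect of the dye and one of the genotype cannot be told apart. The labels call the material cell samples without naming a tissue, give no age, sex or promoter of the transgene, and do not say how many animals stand behind an extract. Nothing says that extracts of 1 genotype came from separate animals, so p-values measure the spread among these extracts, and that spread may be technical only.

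The signals bear on how the Rab values can be read. The median spot stood 2.94 times above its local background in wild type 2, against 5.10 to 5.26 times in the other extracts, and 55 of 76 Rab probes were well above background there, against 66 to 69 elsewhere. Probes for olfactory receptors, genes of the nasal epithelium, were well above background at 77.4% of spots in wild type 2 and at 88.5% to 90.1% in the others, while 0 of 153 negative control spots were. A probe well above background is therefore not by itself a sign that the gene was expressed. Of the beta cell markers, Ins1, Ins2, Pdx1 and RGD1562627 were well above background in all 4 extracts, Iapp in 3 and Nkx6-1 in 0. For Slc2a2, 1 probe was so in 4 extracts and another in 0. Ins1 and Ins2 were lower in HIP on both arrays, with log2 ratios of -1.18 and -1.02 for Ins1 and -1.04 and -0.85 for Ins2. The 8 beta cell marker probes split into 3 lower on both arrays, 1 higher and 4 of unlike sign. The higher one was Iapp, with log2 ratios of 0.51 and 0.10. Fewer cells of a type and less RNA per cell cannot be told apart in such extracts.

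A probe entered the tests when each array showed it well above background in 1 dye or both, which 65 Rab probes of 41 genes met. None of the 65 passed limma's test of the mean log2 ratio against 0 at an adjusted p of 0.05, as none of 33664 gene probes did (0%). The smallest limma adjusted p over all probes and over the Rab probes alike was 0.942. Without adjustment, 3 Rab probes had a limma p under 0.05, beside 3.27% of all probes: Rab2b probe A_44_P478104, Rab2 and Rab3d probe A_43_P13074. A trended or robust prior in limma also passed none, with 2 and 3 Rab probes under 0.05 unadjusted. Every direction that follows is a measured difference between extracts that did not pass the test.

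Across the 65 Rab probes the arrays gave ratios in no common order. The log2 ratio was positive on both arrays for 18 Rab probes, beside 26.9% of all probes, and negative on both for 12, beside 22.9%. In all, 30 Rab probes, or 46.2%, kept 1 sign, close to the 49.8% of all probes. Pearson's r between the arrays' ratios was -0.11 and Spearman's rho -0.06 over the 65 Rab probes, which share the same 4 extracts, and -0.01 for both over all probes. At least 2-fold higher in HIP on both arrays were 3 Rab probes (2.57% of all probes), at least 2-fold lower on both were 2 (2.44%), and 2-fold apart in opposite directions were 5 (5.42%). The split of 3 higher and 2 lower moved with the scaling, to 6 and 2 under median centring, 12 and 0 without normalization, and 4 and 5 with the scanner's processed ratios. The counts over all 33664 probes moved too, from 864 and 820 to 2498 and 461, 9098 and 180, and 1929 and 1576 in that order. The median of the mean log2 ratios was -0.02 for the Rab probes and 0.02 for all probes, so the Rabs as a whole lay where the array did. Their spread was a little wider, with an SD over probes of 1.57 and 1.47 on arrays 1 and 2 against 1.35 and 1.39 for all probes.

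**Figure D1:**
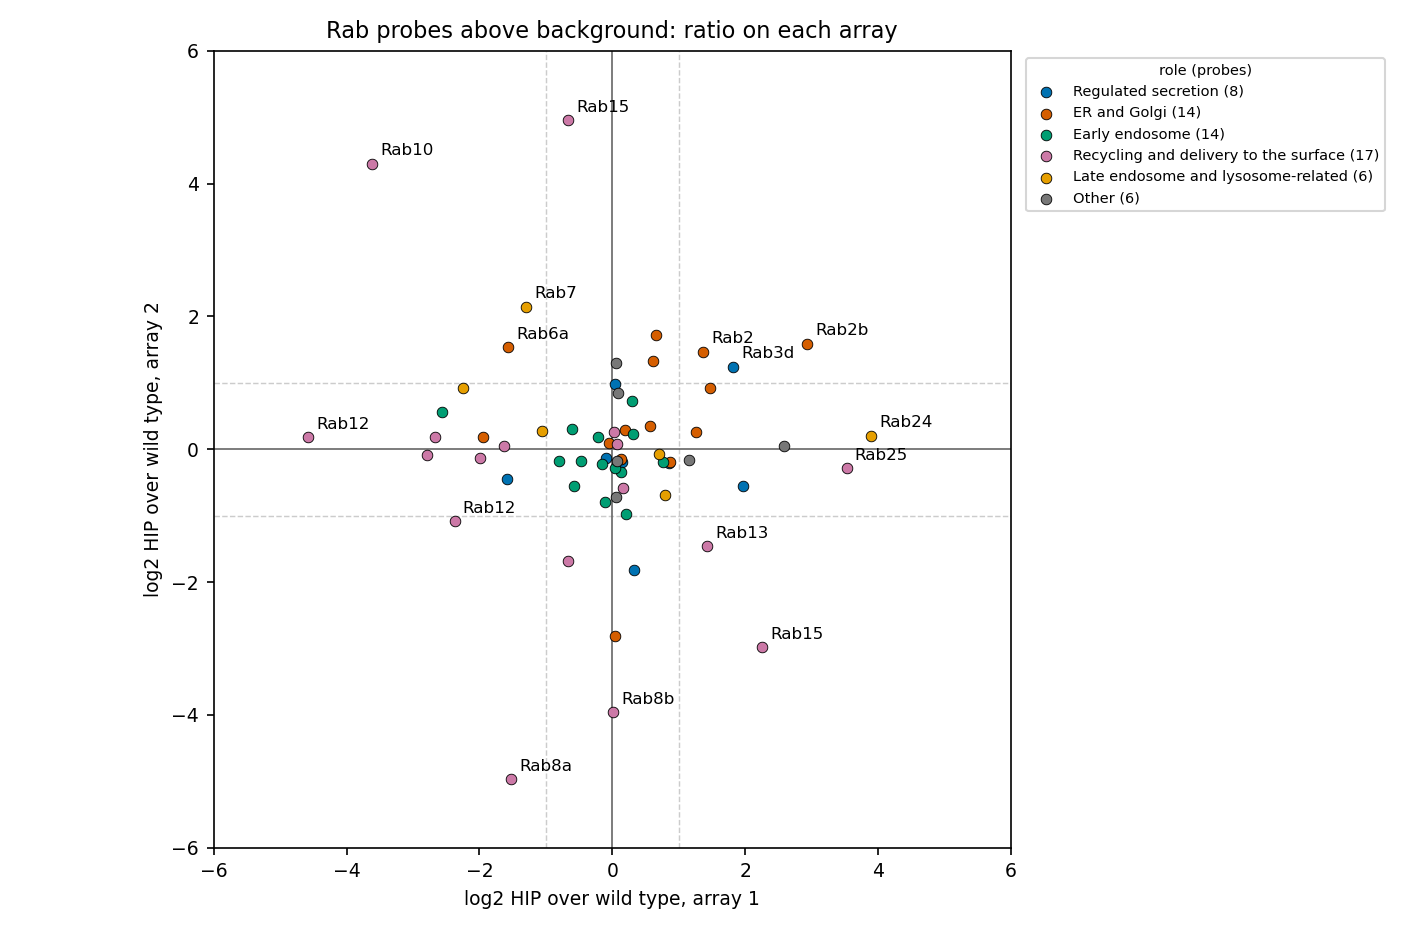
Log2 ratio of HIP over wild type on array 1 (x axis) and array 2 (y axis) for the 65 Rab probes that entered the tests, 1 point per probe, coloured by role. Solid lines mark a ratio of 0 and dashed lines 2-fold. Only 3 points lie past 2-fold at upper right and 2 at lower left, while 5 lie past it at upper left or lower right.

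The Rabs of ER and Golgi held 8 of the 18 Rab probes that were higher in HIP on both arrays. These were 3 probes of Rab2b, 2 of Rab1 and 1 each of Rab2, Rab43 and Rab6a. Probes of 1 gene are not independent of each other. On both arrays 8 of the 14 tested probes of this group were higher, 0 were lower, and 6 had unlike signs, with a median mean log2 ratio of 0.39. Of all tested probes, 26.9% were higher on both arrays and 22.9% lower. Levels below are log2 signals of 1 dye after normalization, which compare extracts for 1 probe and not 1 probe with another. Rab1, which moves cargo from ER to Golgi, was measured by 2 probes placed 6619 bases apart. Probe A_44_P208324 read 11.26 and 9.54 in wild type 1 and 2 and 11.92 and 11.27 in HIP 1 and 2, giving log2 ratios of 0.66 and 1.72. Probe A_44_P477577 read 9.29 and 8.98 in wild type and 10.76 and 9.89 in HIP, giving 1.47 and 0.92. Both probes had a mean log2 ratio of 1.19, with SDs of 0.76 and 0.39, and in both the HIP levels lay above the wild-type levels, though HIP 2 and wild type 1 nearly met in the first. Both HIP levels lay above both wild-type levels in 8 of 65 Rab probes, beside 15.8% of all probes.

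Rab2, which acts with Rab1 between ER and Golgi, read 7.82 and 7.11 in wild type and 9.18 and 8.58 in HIP. Its ratios of 1.36 and 1.47 (2.58-fold and 2.77-fold) were the most alike among the 5 probes 2-fold higher or lower on both arrays, with a mean of 1.42 ± 0.08 (SD, n = 2), which the scanner's processed ratios put at 2.30. Its close relative Rab2b had 4 probes, and they did not give 1 picture. Probe A_44_P478104 read 8.79 and 7.19 in wild type and 11.72 and 8.78 in HIP, so the second HIP extract only reached the level of the first wild-type one. The mean log2 ratio of that probe was 2.26 ± 0.95 (SD, n = 2). Further Rab2b probes had smaller positive ratios, 1.26 and 0.26 for A_44_P610320 and 0.56 and 0.35 for A_44_P635400. The remaining one, A_44_P478110, had ratios of -1.94 and 0.18. Rab43, a Golgi Rab, read 9.49 and 8.90 in wild type and 10.11 and 10.23 in HIP, a mean log2 ratio of 0.98 ± 0.50 (SD, n = 2) with no overlap between genotypes.

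Rab6, which returns vesicles from Golgi to ER and serves exit from the trans-Golgi, gave no common direction. For Rab6a, probe A_44_P487157 read 14.94 and 12.97 in wild type and 13.37 and 14.50 in HIP, so its ratios of -1.57 and 1.54 were nearly equal and opposite. The other Rab6a probe was well above background in HIP alone on both arrays, and its ratios were 0.19 and 0.29, so the levels bound it at 1.18-fold higher in HIP. Such a bound sets the mean of the HIP extracts against the higher of the wild-type reading and the dimmest signal called above background. The direction of this Rab6a probe rested on the scaling. Its mean log2 ratio was 0.70 with the scanner's processed ratios, but -0.22 under median centring relative to all probes. Rab6b probe A_42_P569832 stood at 11.11 in wild type 2 and between 8.30 and 8.84 elsewhere, while A_44_P321583 had ratios of -0.04 and 0.09. Rab33a and Rab34 had ratios of 0.13 and -0.15 and of 0.87 and -0.20.

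The filter matters for this group, because 4 of its probes did not pass it. Rab18, a Rab of ER and lipid droplets, stood at 8.65 in wild type 1 and between 6.04 and 6.27 in the others. Rab33b, a Golgi Rab, stood at 12.39 in wild type 2 and between 5.95 and 6.21 in the others, a log2 ratio of -6.18 on array 2 alone. Rab6b probe A_44_P291938 and Rab39 were the other two. Over all 18 probes without a filter, 9 were higher on both arrays and 2 lower on both. Under median centring in place of loess, relative to the median of all probes, 7 of the 14 were higher on both and 2 lower. The counts over all probes at this setting are not reported here.

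**Figure D2:**
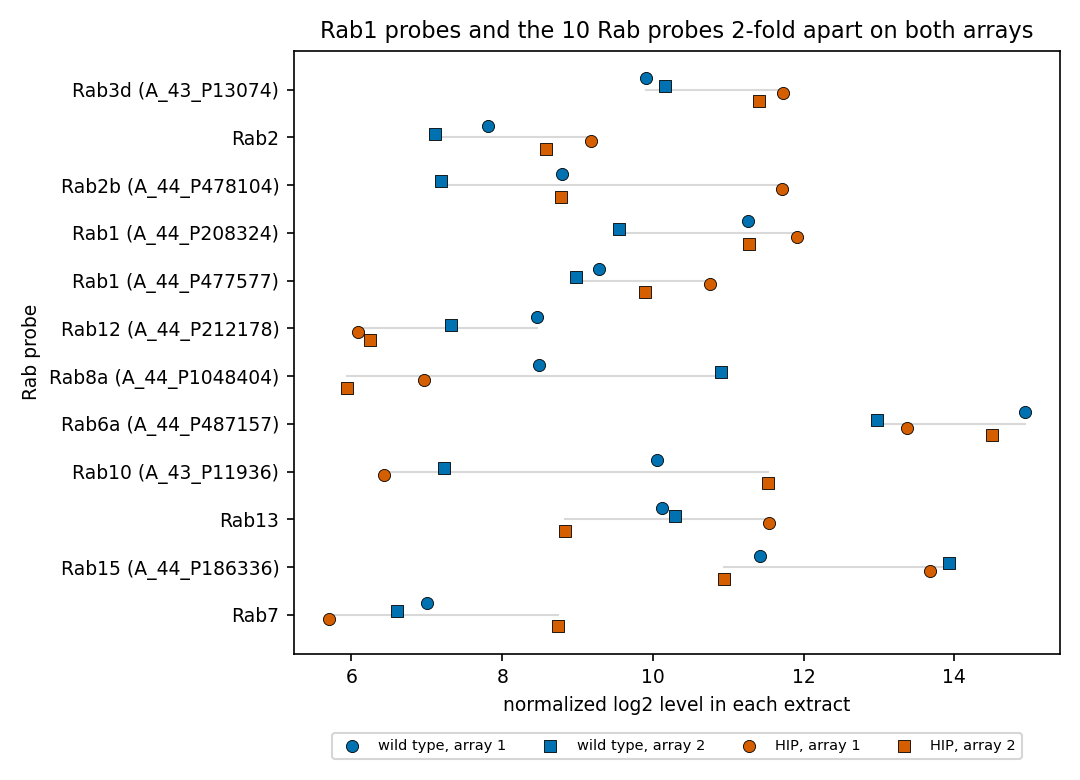
Normalized log2 level (x axis) in each of the 4 extracts for both Rab1 probes and the 10 Rab probes that were at least 2-fold apart on both arrays. Blue marks wild type and orange HIP, circles array 1 and squares array 2. HIP lies to the right of wild type in Rab3d and Rab2, to its left in Rab12 and Rab8a, and the genotypes overlap in Rab2b and in the 5 probes from Rab6a down.

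The Rabs of recycling endosomes and of delivery to the surface had more lower than higher probes. Among the 17 tested probes of this group, 5 were lower and 2 higher on both arrays, and 10 had unlike signs. Beside them, 22.9% of all probes were lower and 26.9% higher on both arrays. The median mean log2 ratio of the group was -0.79. Under median centring relative to all probes the counts were 0 higher and 11 lower, so the share of lower probes rested in part on the scaling. That setting moved dim probes down and bright ones up. Rab10 probe A_44_P413979, above background in no extract, went from -0.03 to -0.80, and bright Rab6a probe A_44_P487157 from -0.02 to 0.73. The part of brightness in these counts was not tested, and the counts over all probes at this setting are not reported here. Rab8a, which brings vesicles to the plasma membrane and the cilium, had 3 probes. Probe A_44_P1048404 read 8.49 and 10.91 in wild type and 6.97 and 5.94 in HIP, giving log2 ratios of -1.52 and -4.96 and a mean of -3.24 ± 2.43 (SD, n = 2). Probe A_44_P266803, 842 bases away, read 7.11 and 8.15 in wild type and 6.43 and 6.46 in HIP. Its mean log2 ratio was -1.18 ± 0.72 (SD, n = 2), against -2.41 with the processed ratios. In both of these the HIP levels lay below the wild-type levels, as in 11 of 65 Rab probes and 15.1% of all probes. The third, A_44_P431039, lies 5034 bases from that second probe and had ratios of 0.03 and 0.25, so the gene as a whole has no single value here.

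Rab12, which serves traffic from recycling endosomes to lysosomes, was lower in HIP at both of its tested probes on array 1. Probe A_44_P212178 read 8.46 and 7.32 in wild type and 6.09 and 6.24 in HIP, giving ratios of -2.37 and -1.08 and a mean of -1.73 ± 0.91 (SD, n = 2), which the processed ratios put at -3.71. Probe A_44_P536315, 618 bases away, stood at 11.11 in wild type 1 and between 6.16 and 6.53 in the others, so its ratio was -4.58 on array 1 and 0.18 on array 2. Rab11a, the main Rab of the recycling endosome, was alike in form. Probes A_44_P554795 and A_44_P897247, 963 bases apart, had ratios of -2.79 and -2.66 on array 1 and of -0.08 and 0.18 on array 2. The third Rab11a probe, A_44_P554799, 248 bases from the first, had ratios of 0.17 and -0.59. Rab11b read 8.58 and 7.58 in wild type and 6.58 and 7.44 in HIP, giving ratios of -2.00 and -0.14. For the first 2 Rab11a probes, Rab11b and the second Rab12 probe, the larger difference lay on array 1.

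Other Rabs of this group went by array as well. Rab8b stood at 11.70 in wild type 2 and between 6.91 and 7.75 in the other extracts. Rab25, the Rab11 relative of epithelial cells, stood at 10.41 in HIP 1 and between 6.57 and 6.88 in the others. Rab35, a Rab of fast recycling, had ratios of -1.63 and 0.04. Rab13, a Rab of tight junctions, had ratios of 1.43 and -1.46. Rab10, which moves glucose transporters to the surface in fat cells, had 1 probe with ratios of -3.62 and 4.30 (12.3-fold and 19.7-fold), whose levels were 10.05 and 7.23 in wild type and 6.43 and 11.53 in HIP. A second Rab10 probe had ratios of 0.07 and 0.08. Rab15 gave opposite values at its 2 probes, 2.26 and -2.98 at A_44_P186336 and -0.67 and 4.95 at A_44_P102401. In these last genes an extract of either genotype could be the highest, and no direction belongs to HIP.

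The promoters of Rab1a and Rab8a are shown because these genes had more than 1 probe in which both HIP extracts lay on the same side of both wild-type extracts, above for Rab1 and below for 2 of the 3 Rab8a probes, the third lying above. Each is the 250 bases before the RefSeq start in build GRCr8, on chr14:98623427-98623676 on the plus strand for Rab1a and on chr16:17709413-17709662 on the minus strand for Rab8a, written 5′ to 3′ on the gene's strand. Capitals mark matches, on either strand, to CCACG, a short site bound by the ER stress factors ATF6 and XBP1, to CCAAT, the box bound by NF-Y, and to TGACGTG, the core of an unfolded protein response element.
Rab1a: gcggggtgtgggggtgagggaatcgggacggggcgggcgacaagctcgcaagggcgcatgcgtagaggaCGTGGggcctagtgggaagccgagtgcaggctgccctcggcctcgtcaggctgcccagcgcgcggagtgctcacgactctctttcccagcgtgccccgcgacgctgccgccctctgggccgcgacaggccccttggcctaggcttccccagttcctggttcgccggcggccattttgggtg
Rab8a: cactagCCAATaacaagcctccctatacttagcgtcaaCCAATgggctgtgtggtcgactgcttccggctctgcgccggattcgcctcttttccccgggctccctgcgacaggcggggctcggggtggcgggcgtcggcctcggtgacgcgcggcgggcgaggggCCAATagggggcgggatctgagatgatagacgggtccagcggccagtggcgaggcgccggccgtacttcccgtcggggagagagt
Of the 47 Rab symbols, 39 had an entry in the promoter table. CCACG was found in 20 of these 39 windows (51.3%) and in 27.2% of all 33469 windows of that length, CCAAT in 33.3% against 34%, and TGACGTG in 0 of 39 against 1.54%. The Rab windows had a median GC content of 65.2%, against 51.2% for all windows. A match describes these letters only, and binding was not measured here.

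The Rabs of early endosomes had mostly small ratios, more often lower than higher in HIP on both arrays. Among their 14 tested probes, 5 were lower and 2 higher on both arrays, beside 22.9% and 26.9% of all probes, and 7 had unlike signs. Their median mean log2 ratio was -0.17. Median centring relative to all probes, which moved dim probes down as above, gave 8 lower and 1 higher. Rab5a, the master Rab of early endosome fusion, read 6.79 and 7.23 in wild type and 6.22 and 6.68 in HIP. Its ratios of -0.57 and -0.55 were almost the same on both arrays, a mean of -0.56 ± 0.02 (SD, n = 2). That is under 2-fold, but the scanner's processed ratios and the authors' deposited table put the mean at -1.57 and an offset of 0 at -1.18, all past 2-fold. Rab4a and Rab4b, which return receptors rapidly to the surface, had ratios of -0.80 and -0.17 and of -0.46 and -0.18, though the Rab4b mean turned to 0.02 under median centring relative to all probes. Rab5b had ratios of -0.61 and 0.30. Among the Rab5c probes, A_44_P185504 had ratios of -0.10 and -0.79, and A_44_P187374 stood at 10.99 in wild type 1 and between 7.96 and 8.52 elsewhere. Rab14, which links endosomes and Golgi, was higher on both arrays at both probes, with ratios of 0.30 and 0.73 and of 0.31 and 0.23. The second of these was well above background in HIP alone, with a measured mean of 1.20-fold higher under loess, but this mean turned to -0.14 under median centring relative to all probes. Rab21 and Rab22a had ratios between -0.35 and 0.18 at all 4 probes, and the Rab31 probes had ratios of 0.77 and -0.19 and of 0.20 and -0.97.

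Among the Rabs of regulated secretion, the family members closest to the insulin granule, Rab3d stood out at 1 of its probes. Probe A_43_P13074 read 9.91 and 10.16 in wild type and 11.73 and 11.41 in HIP. Its ratios were 1.82 and 1.25 (3.52-fold and 2.37-fold), a mean of 1.53 ± 0.40 (SD, n = 2), and the genotypes did not overlap. The second Rab3d probe, A_44_P243111, 1169 bases away, read 6.83 and 7.42 in wild type and 6.98 and 7.23 in HIP, with a mean log2 ratio of -0.02. Rab3d is the Rab3 form best known from the granules of exocrine cells. The 9 acinar marker probes split into 3 higher on both arrays, 1 lower and 4 of unlike sign, and 1 had no ratio on array 1. Their part in the Rab3d value was not tested.

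The other secretory Rabs gave smaller or mixed values. Rab3a, the form of neurons and endocrine cells, read 6.36 and 6.51 in wild type and 7.23 and 6.29 in HIP. The Rab3b probes had ratios of 0.33 and -1.81 and of 0.04 and 0.98. Rab27b was lower in HIP on both arrays at both probes, with ratios of -1.59 and -0.45 at A_44_P486055 and of -0.09 and -0.14 at A_42_P795294, and the mean of that second probe turned to 0.08 under median centring. Rab26, which is tied to secretory granule maturation, stood at 9.27 in HIP 1 and between 7.30 and 7.98 elsewhere. Rab27a, the main Rab27 of insulin granules, and Rab3c did not pass the filter. Rab27a was well above background in HIP 1 alone, and Rab3c was so on array 2 alone, at 7.96 in wild type 2 and 11.53 in HIP 2. In sum over this group, 2 of 8 tested probes were higher on both arrays and 2 lower, beside 26.9% and 22.9% of all probes, and 4 had unlike signs. Of the 8 beta cell marker probes, 3 were lower on both arrays, among them Ins1 and Ins2. The dim Iapp probe was higher on both, with ratios of 0.51 and 0.10, and 4 had unlike signs. The part of the insulin-bearing cells in the values of these Rabs was not tested.

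The late endosomal and lysosome-related Rabs had no direction. On both arrays 1 of 6 tested probes was higher and 0 were lower, beside 26.9% and 22.9% of all probes, and 5 had unlike signs. Rab7, which drives fusion with lysosomes, read 6.996 and 6.60 in wild type and 5.70 and 8.74 in HIP. It was well above background only in wild type on array 1 and only in HIP on array 2, and its ratios of -1.30 and 2.15 oppose each other. Rab24, a Rab tied to autophagy, stood at 12.04 in HIP 1 and between 7.84 and 8.14 in the others. Rab38, of lysosome-related organelles, had ratios of 0.79 and -0.69 and of 0.70 and -0.06, Rab9b of -2.25 and 0.92, and Rab7l1 of -1.05 and 0.27. Rab9 was not above background in any extract. Of the other Rabs, Rab28, Rab40b and Rab40c had mean log2 ratios between -0.34 and 0.67, and Rab23 was not above background. Rab2l stood at 12.51 in HIP 1 and between 9.80 and 9.93 elsewhere.

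A recurring form was a probe that stood high in 1 extract and level in the other 3. By a definition chosen after the values were seen, 1 extract at least 4-fold from the 3 others and these within 2-fold of each other, 9 of 65 tested Rab probes qualified (13.8%), beside 9.73% of all tested probes. With the 3 untested ones there were 12, and in each the lone extract was the highest. It was wild type 1 in 6, wild type 2 in 3, HIP 1 in 3 and HIP 2 in 0. Over all tested probes the counts of lone high extracts were 980, 678, 822 and 657 in that order, so each extract had its own set. Because a ratio sets 1 extract against 1 other, each such probe gives a large ratio on 1 array and a small one on the other.

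**Figure D3:**
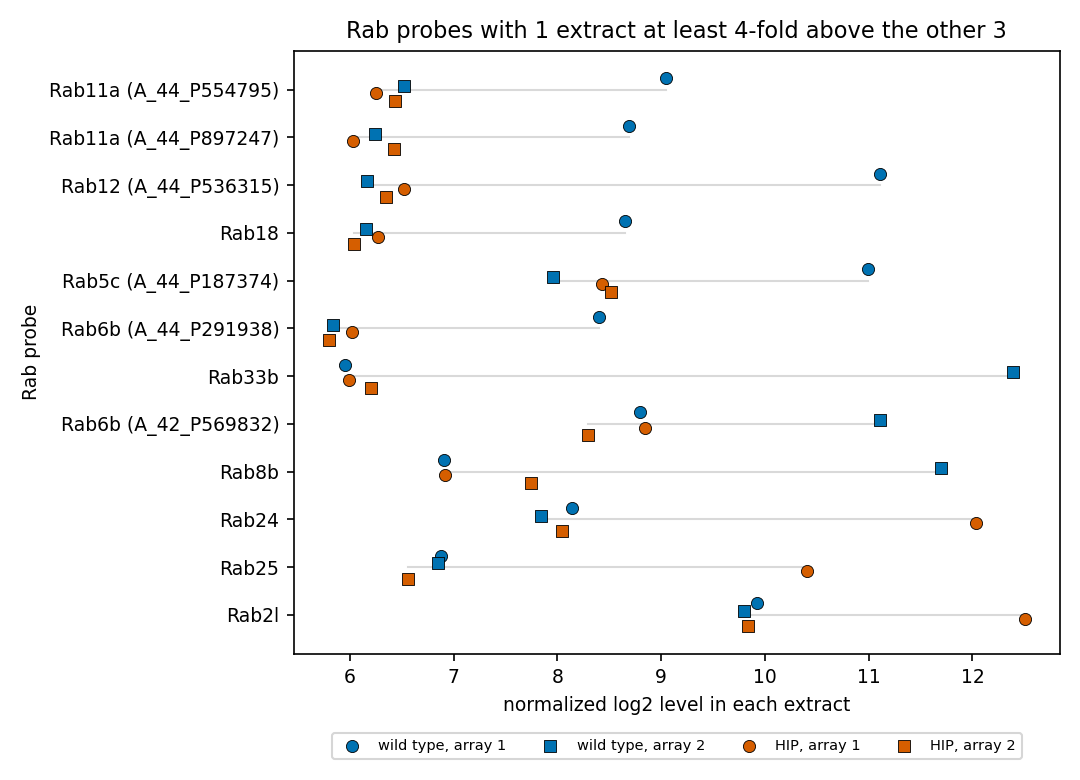
Normalized log2 level (x axis) in the 4 extracts for the 12 Rab probes with 1 extract at least 4-fold above the other 3, ordered by that extract. Blue marks wild type and orange HIP, circles array 1 and squares array 2. The upper 6 probes stand apart in wild type 1, the next 3 in wild type 2 and the last 3 in HIP 1.

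Probes for the same Rab agreed in sign about as often as 2 probes of any gene. The 20 Rab genes with more than 1 tested probe gave 29 pairs, and in 16 of them (55.2%) the mean log2 ratios had 1 sign, against 54.8% of 4840 pairs over all gene names. Means of paired Rab probes lay a median of 0.91 apart on the log2 scale, against 0.68 over all pairs. Where probes lay at most 1000 bases apart, the means of 7 of 9 Rab pairs had 1 sign, against 62.3% over all gene names. By array, 7 of the 9 had 1 sign on array 1 and 4 on array 2, against 56.3% and 57.4% over all gene names. Among the 20 genes, every probe was higher on both arrays in Rab1 and Rab14, and every probe lower on both in Rab27b. Under median centring relative to all probes, 1 of the 2 probes of Rab14 and of Rab27b changed the sign of its mean, to -0.14 and 0.0836, while both Rab1 probes kept theirs. In Rab8a, probes with 1 sign on both arrays opposed each other, though the mean of the higher one turned to -0.13 under median centring, and in the other 16 at least 1 probe differed in sign between arrays.

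**Figure D4:**
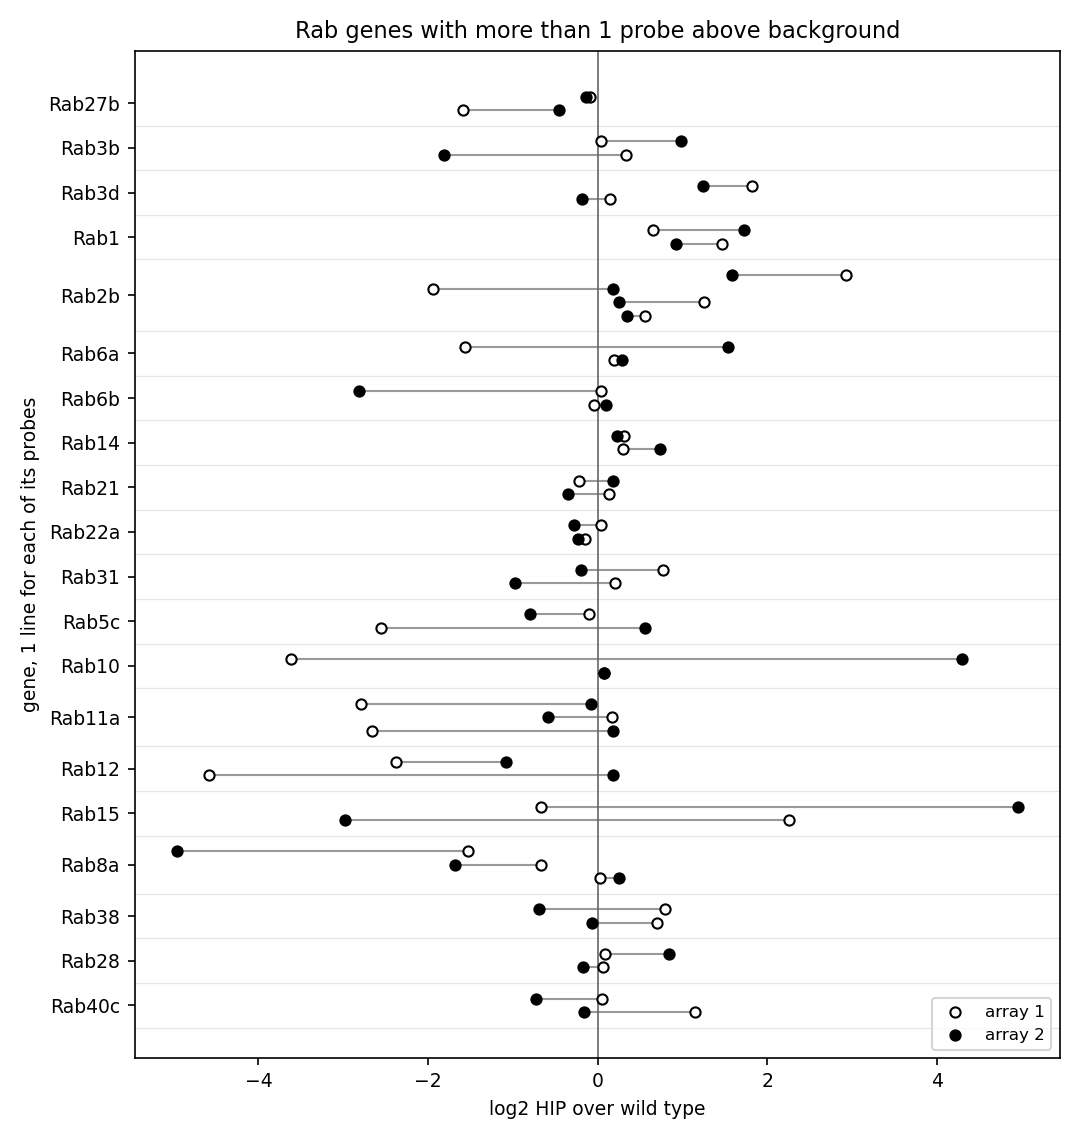
Log2 ratio of HIP over wild type (x axis) on array 1 (open circles) and array 2 (filled circles) for each tested probe of the 20 Rab genes with more than 1 tested probe, 1 line per probe. In this loess scaling the lines of Rab1 and Rab14 lie right of 0, those of Rab27b left of it (1 probe each of Rab14 and Rab27b changes sign under median centring), and those of Rab15 cross each other from end to end.

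The proteins that run the Rab cycle were looked at beside the Rabs. Of 36 listed genes for prenylation, GDI, exchange and GTP hydrolysis, 29 had a tested probe, and none of their 40 probes passed limma's test at an adjusted p of 0.05. On both arrays 9 were higher and 11 lower, beside 26.9% and 22.9% of all probes, and 20 had unlike signs. The median mean log2 ratio was -0.02. Among probes of 1 sign, Rabac1, a receptor that receives prenylated Rabs at the Golgi, had the highest mean, 2.74 ± 1.83 (SD, n = 2), reading 7.29 and 7.82 in wild type and 8.74 and 11.86 in HIP. Rin1, an exchange factor for Rab5, followed with ratios of 2.01 and 1.03. The lowest mean was that of Tbc1d17, a Rab GTPase-activating protein, with ratios of -2.61 and -1.05. These 3 probes were picked for their extreme means, and in them the levels of the genotypes did not overlap. Over all probes, both HIP levels lay above both wild-type levels in 15.8% and below in 15.1%.

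Of 51 listed effectors, 41 had a tested probe, and none of 55 probes passed limma's test at an adjusted p of 0.05. On both arrays 16 were higher and 8 lower, beside 26.9% and 22.9% of all probes, and 31 had unlike signs. The median mean log2 ratio was 0.08. The highest means of 1 sign were those of Sdccag3 probe A_44_P131036, with ratios of 2.28 and 1.33, and of Bicd2, the adaptor that joins Rab6 vesicles to dynein, which read 9.30 and 8.30 in wild type and 11.19 and 9.67 in HIP. The lowest were Rbsn probe A_44_P726147, for the Rab5 effector rabenosyn, with ratios of -0.14 and -3.20, and Appl1 probe A_43_P16926, for another Rab5 effector, with -1.33 and -0.86. The other tested Sdccag3 probe was also higher on both arrays, with ratios of 2.83 and 0.13. The other Rbsn probe had -0.12 and 1.19, and both further Appl1 probes differed in sign between arrays.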

How the data were processed

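Gene expression was measured on 2 two-colour Agilent arrays (design 014879) that share 1 slide and 1 scan, so no batch could be tested. Per the labels, mRNA was taken on magnetic beads, cDNA made from it went through global PCR, and 250 ng of each amplified cDNA was labelled. The effect of amplification on transcript proportions was not measured here. Per the file headers the authors' scanner software was Feature Extraction 9.5.1.1 (Agilent), and the deposited scanner files give mean spot intensity and median background intensity for each dye. The authors' deposited table holds log10 ratios of Cy5 over Cy3: 89.5% of its matched entries equalled the scanner's log10 ratio within 2e-05 on both arrays, and 36 of 55 Rab entries did. For the other entries, the rule that joined several probes was not given in these sources.

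From the deposited intensities, log2 ratios were computed in R 4.3.3 with limma 3.58.1: normexp background correction with an offset of 50, which pulls ratios of dim spots toward 0, and loess within each array. Control spots had weight 0 in the loess and were left out of tests, outlier spots were removed, and repeated spots were averaged. No Rab probe had an outlier spot and none was saturated. Levels of single extracts are the log2 signals of each dye after loess and Aquantile scaling, a scaling that gives the summed brightness of all extracts 1 common distribution. Probes that each array showed well above background in 1 dye or both were tested with lmFit and eBayes against 0, two-sided, with Benjamini-Hochberg adjustment over all 33664 of them. Arrays give no read depth, and their number limits the precision. The fitting step was tested on simulated data.

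The members, roles and lists were chosen with earlier results of these data known. Named with values were all Rab probes 2-fold apart on both arrays, all probes of genes with several, those above background in 1 genotype alone, a set of Rabs by role, and the 2 highest and 2 lowest partners of each list, of which 1 is not reported here. Rab43, Rab33a, Rab34, Rab9b, Rab7l1, Rab2l, Rab33b and Rab39 were added after their values were seen. Rab names beyond those on the array were not analysed here. No source used here gives the build of the probe positions, so only distances between probes are printed. Gene names and promoters come from RefSeq (GRCr8).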

Additional observations from a re-analysis of the deposited data

How the results depend on the processing

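No Rab probe passed limma's test in any of the alternative settings. Limma's test of the ratios was itself paired by array, because each ratio sets 1 HIP extract against the wild-type extract of its array. The 2 ratios leave no further term to fit. The count of Rab probes at least 2-fold higher on both arrays was 6 with median centring in place of loess and 12 without normalization, which move the median of all probes to 0.27 and 1.06 and that of the Rab probes to 0.11 and 0.90. Over all 33664 probes those counts were 2498 and 9098. Without normalization 0 of 65 Rab probes were 2-fold lower and 47 kept 1 sign, beside 180 and 26168 of all 33664 probes. The count of 2-fold lower probes was 5 with the scanner's processed ratios, with the authors' deposited table (48 Rab probes) and with an offset of 0, and the count of opposite ones was 11 with the first 2 of these. Over all probes, 1576, 1315 and 1283 were lower in these settings, and 3627 and 3054 opposite in the first 2. The table held 30021 of all probes. With 1 probe per gene name, 41 Rab probes remained, 1 of them 2-fold lower and 17 of 1 sign, beside 729 and 14763 of 29689 probes. From 1 array alone, without replicate 1 or without replicate 2, counts past 2-fold ran from 10 to 12 higher and from 8 to 15 lower, and the Rab median ran from -0.06 to 0.05. Over all 33664 probes such counts ran from 4655 to 5089 higher and from 4332 to 5598 lower. Leaving out Rab2l, an alternative chosen after seeing the data, moved no count past 1.5 times.

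Of 58 named Rab probes, 14 had a mean log2 ratio of the other sign under median centring, taken relative to the median of all probes. These were Rab28 A_44_P209461 at 0.12, Rab38 A_44_P369399 at -0.11, Rab5b at 0.29, Rab15 A_44_P186336 at 0.30, Rab6a A_44_P487162 at -0.22 and A_44_P487157 at 0.73. They further were Rab10 A_44_P301789 at -0.27, Rab3a at -0.0903, Rab6b A_44_P321583 at -0.0049, Rab4b at 0.0168, Rab13 at 0.56, Rab14 A_44_P205883 at -0.14, Rab8a A_44_P431039 at -0.13 and Rab27b A_42_P795294 at 0.0836. Processed ratios gave the other sign for Rab21 A_44_P430872, 0.63, and Rab6a A_44_P487157, 0.0032, which an offset of 0 put at 0.0298. Of 41 named probes in the authors' deposited table, 6 did: Rab31 A_44_P380839 at 0.15, Rab28 A_44_P209461 at 0.39, Rab3b A_44_P402705 at 0.11, Rab6b A_44_P321583 at -0.56, Rab2b A_44_P478110 at 1.21 and Rab3d A_44_P243111 at 0.68. Each of these 6 entries differed from the scanner's ratio for that probe, and another probe of the same gene had no entry. Such an entry is therefore not a like measure of the single probe. The cause of the other changes was not tested. The sizes moved more often than the signs: means differed from the printed ones by over 1.5 times in 33 of 58 named probes with processed ratios, 27 with median centring, 25 with an offset of 0, 7 without background correction and 21 of 41 in the authors' deposited table. The last count includes entries that were not like measures of the single probe. With no background correction 0 of 58 changed sign, and from 1 array alone 15 or 16 did.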
